A study of Mus musculus with 11 samples.

Results

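The CSF1 and IL34 receptor axis comprised 6 of the 31053 genes in the count matrices, chosen by symbol: the ligands Csf1 and Il34, their receptor Csf1r, and the receptor genes of the related colony-stimulating factors, Csf2ra, Csf2rb and Csf3r. RNA of single nuclei from frozen cortex was counted in 11 mice, 1 library per mouse. The labels give all 11 as female, whereas the study's methods state that RNA-seq used males only, and the sex was not checked here. The non-transgenic group (Ikbkb+/+, n = 4, aged 9.8 to 10.85 months) and the P301S group (Ikbkb+/+;P301S+, n = 3, 9.15 to 10.75 months) lacked Cre, and their mice came from both breeding lines. The knockout P301S group (Ikbkb-/-;P301S+, n = 2, 8.39 and 9.15 months) came only from the floxed Ikbkb line, and the active IKKb P301S group (IkbkbCA;P301S+, n = 2, 9.8 and 10.85 months) only from the line carrying a Cre-dependent, constitutively active IKKb allele. Per the study's methods, all groups received tamoxifen, the controls carried the floxed alleles without Cre, deletion or activation was driven by Cx3cr1 CreERT2 (which replaces 1 Cx3cr1 allele), and the P301S tau transgene was that of the PS19 line. Genotype was therefore confounded with Cx3cr1 dosage in both Cre groups and with breeding line between them, and these cannot be told apart here. Age was partly confounded as well. Both knockout P301S mice were younger than every non-transgenic mouse and no older than any P301S mouse.

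CSF1R is the tyrosine kinase receptor on which microglia depend for survival and proliferation, and it binds 2 ligands, CSF1 and IL34. CSF2RA binds granulocyte-macrophage colony-stimulating factor and signals with the common beta chain CSF2RB, which is shared with the interleukin 3 and interleukin 5 receptors. CSF3R is the receptor for granulocyte colony-stimulating factor, best known in neutrophils. IKKb, encoded by Ikbkb, is the kinase that releases NF-κB into the nucleus, and the study's design changes it in microglia in the presence of mutant tau.

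The promoter of Csf1 is shown because Csf1 was called in 1 of the genotype comparisons below; Il34 could not be tested there. In the RefSeq sequence of the 250 bases before the start site of Csf1 (GRCm38.p6, chr3:107760470-107760719, minus strand, printed 5′ to 3′ on the strand of the gene), 1 match to the NF-κB consensus was found, on the opposite strand, where it reads GGGACTTTCC. It is set in capitals.
Csf1 promoter: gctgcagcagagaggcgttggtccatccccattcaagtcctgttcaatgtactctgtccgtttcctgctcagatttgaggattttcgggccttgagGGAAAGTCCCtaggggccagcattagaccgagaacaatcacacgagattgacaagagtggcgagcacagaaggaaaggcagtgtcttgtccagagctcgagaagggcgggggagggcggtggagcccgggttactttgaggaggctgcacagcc
The first base of the match lies at -154 from the start site. Both strands were searched with the 10-letter NF-κB consensus, and 1281 of 32851 promoters of this length (3.90%) held at least 1 match. The promoters of Csf2ra, Csf3r and Csf2rb2 held none, and those of Il34, Csf1r and Csf2rb were not searched. The core motif of PU.1 (GAGGAA, both strands), the myeloid factor encoded by Spi1, was present in 23.3% of all promoters; it was absent from the Csf1 window and occurred 2 times in that of Csf2ra, 1 time in that of Csf3r and 1 time in that of Csf2rb2. A letter match is a description of the window and not a measured binding site.

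After filtering, 103065 nuclei were grouped by expression with the 6 members left out of the variable genes. The 11 libraries held 72007219 to 93205362 unique molecular identifiers (UMIs, counted RNA molecules) each, and pairs of libraries shared 15 to 45 cell barcodes, at most 0.425% of the smaller library. The microglia cluster contained 4364 nuclei (188 to 718 per mouse, with 383923 to 1647829 summed UMIs) and had all 12 microglia markers raised; the same nuclei were found when the members were kept among the variable genes. Levels are given below as CPM, the UMIs of a gene scaled to 1000000 UMIs summed over the nuclei of 1 type in 1 mouse. They are not compared between genes, because counting at the 3′ end does not put genes on 1 scale. Of the RNA in a summed type, fewer nuclei of a kind and less RNA per nucleus cannot be told apart. Levels across types are a description and were not tested. Of the 23484 inhibitory neuron nuclei, 9755 came from a cluster led by Sh3rf2 and Drd2, like the striatal projection neuron-like nuclei below.

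The 2 CSF1R ligands had their highest levels in different nucleus types, although fibroblast nuclei came next for both and neurons held most Il34 molecules. Csf1 was highest in oligodendrocyte nuclei and Il34 in pericyte or smooth muscle nuclei, whereas Csf1r was largely restricted to microglia nuclei. The plot of levels by nucleus type shows every mouse.

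**Figure D1:**
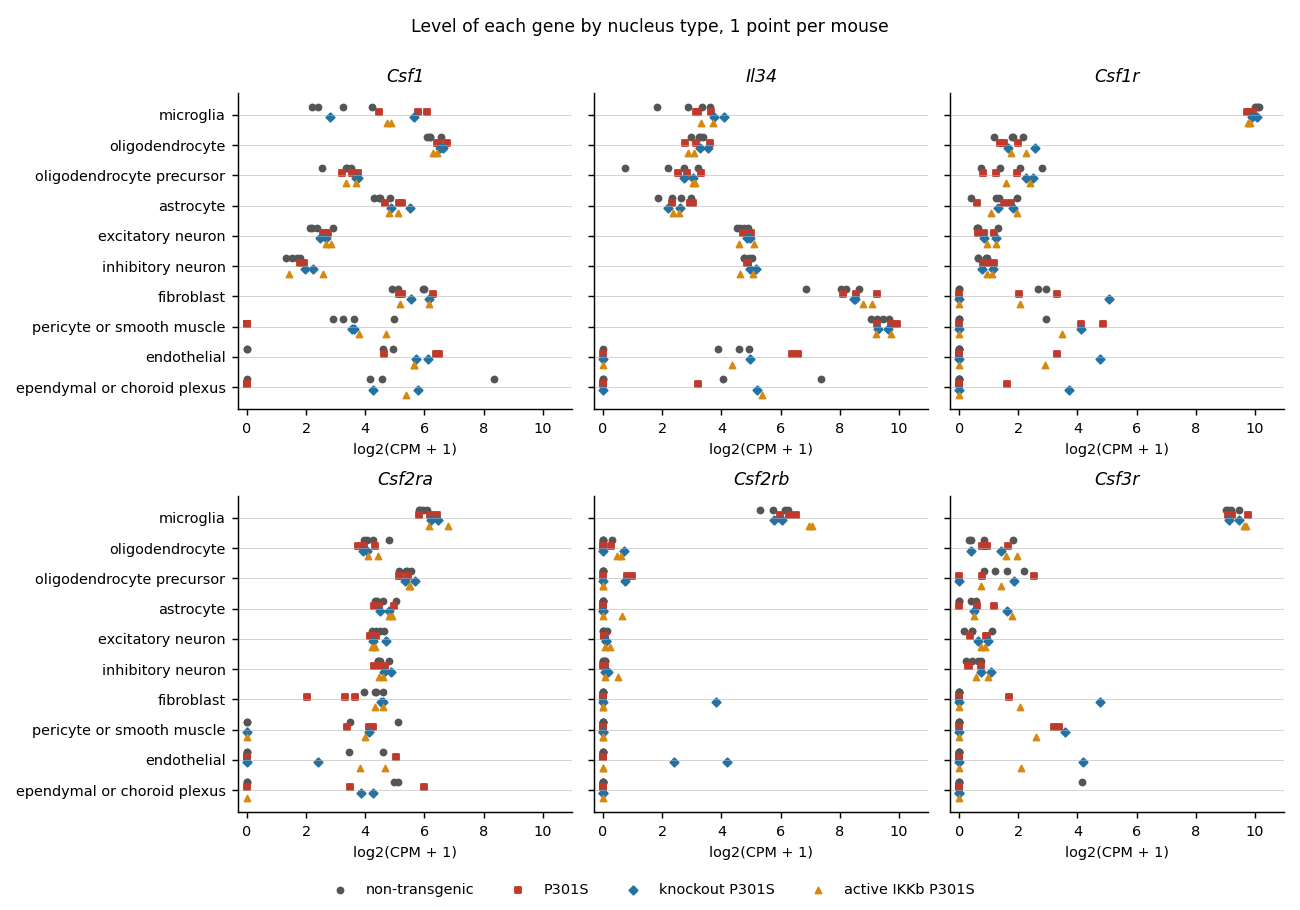
Level of each of the 6 genes in 10 nucleus types, as log2(CPM + 1) on the horizontal axis, with 1 point per mouse coloured by genotype. Csf1r, Csf2rb and Csf3r lie farthest to the right in microglia nuclei, and Il34 has its highest means in pericyte or smooth muscle and fibroblast nuclei; points of the endothelial and ependymal or choroid plexus types rest on few UMIs and scatter widely, up to 164 CPM for Il34 and 328 CPM for Csf1.

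Csf1 (ENSMUSG00000014599; GENCODE M21, GRCm38, chromosome 3, 107741048 to 107760469, minus strand, 7 transcripts) had 8471 UMIs over all nuclei, of which 47.7% were in oligodendrocytes, 26.9% in excitatory neurons, 10.1% in astrocytes and 3.57% in microglia. Its mean level in oligodendrocyte nuclei was 85.2 CPM ± 12.4 (SD, n = 11 mice), with 67.4 CPM in the lowest mouse, and it exceeded that of fibroblast nuclei, 50.6 CPM ± 18.1, in 11 of 11 mice. Endothelial (42.5 CPM ± 30.3, from 55 UMIs), astrocyte (28.9 CPM ± 7.94) and microglia (25.9 CPM ± 21.9) nuclei followed, with overlapping ranges. Ependymal or choroid plexus nuclei were not ranked: their 18 UMIs gave 0 to 328 CPM, and the highest mouse had 2 UMIs in 2 nuclei. The inhibitory neurons were lowest, at 2.63 CPM ± 0.97. After each nucleus was thinned to 1000 UMIs, 7.71% of oligodendrocyte nuclei held a Csf1 UMI (95% exact interval 7.33 to 8.11%), against 0.27% of inhibitory neurons (0.21 to 0.34%); without thinning the shares were 17.9% and 2.35% at median depths of 2391 and 8600 UMIs. These intervals cover counting error only.

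Within the oligodendrocyte nuclei Csf1 differed between 3 finer clusters. Cluster 11, led by Enpp6, Anln and Cldn14, had 127 CPM ± 17.8 (SD, n = 11). Cluster 16, led by genes that include the myelin genes Mal and Cldn11, had 81.6 CPM ± 13.6, and cluster 2, led by C030029H02Rik and Opalin, had 67.0 CPM ± 10.8. Csf1 was higher in cluster 11 than in each of the other two in 11 of 11 mice, and higher in cluster 16 than in cluster 2 in 10 of 11. Enpp6 is known as a marker of newly formed oligodendrocytes. Cluster 11 held 4078 nuclei, had 8 of 8 oligodendrocyte markers raised, and its leading genes also included Carns1, Hapln2 and Apod. Its stage of maturation was not tested. Over the 28 fine clusters the genes whose level followed Csf1 most closely among 11334 genes were Baz2b (Pearson r = 0.93), Fech (0.93), Appbp2 (0.92), Pafah1b1 (0.92) and Vamp5 (0.91); the clusters share libraries and differ in depth.

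Il34 (ENSMUSG00000031750; chromosome 8, 110741829 to 110805924, minus strand, 5 transcripts, with Gm15894 and Gm15895 on the opposite strand) had 21772 UMIs. Its level was 727 CPM ± 142 (SD, n = 11) in pericyte or smooth muscle nuclei, where the mice ranged from 533 to 976 CPM, and 369 CPM ± 135 in fibroblast nuclei. It was higher in the former in 11 of 11 mice. Inhibitory neurons (29.3 CPM ± 3.25) and excitatory neurons (27.2 CPM ± 3.61) came next, with ranges that overlapped each other and lay below those of both. The endothelial and ependymal or choroid plexus types, with 33 and 13 UMIs of Il34 in all, had wide ranges from 0 to 94.5 and 0 to 164 CPM. Because neurons were numerous and deep, they still held most of the Il34 molecules: 57.6% in excitatory and 28.4% in inhibitory neurons, against 5.73% in fibroblasts and 4.58% in pericyte or smooth muscle nuclei. Thinned to 1000 UMIs, 47.2% of pericyte or smooth muscle nuclei (43.1 to 51.3%) and 25.8% of fibroblast nuclei held an Il34 UMI, against 0.58% of astrocytes; unthinned, the first 2 shares were 68.4% and 45.0%.

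The 2 fibroblast clusters differed in both ligands. Cluster 24, led by the GABA transporter gene Slc6a13, had 567 CPM ± 170 of Il34 (n = 9 mice with enough nuclei), and cluster 27, led by Slc47a1, had 10.5 CPM ± 10.5 (n = 8). In the 7 mice with both, Il34 was higher in cluster 24 in 7, and so was Csf1. Over the same 9 and 8 mice as for Il34, Csf1 was at 72.9 CPM ± 23.4 in cluster 24 and 17.5 CPM ± 6.99 in cluster 27. Among neurons, Il34 was highest in cluster 10, led by Tmem132c, Lhx6 and Sst, at 38.2 CPM ± 7.35, and lower in the Vip-led cluster 14 (14.7 CPM ± 2.63) and in layer 6 corticothalamic-like cluster 6 (14.01 CPM ± 2.51), in 11 of 11 mice each. The striatal projection neuron-like cluster 3, led by Sh3rf2 and Drd2, had 34.2 CPM ± 2.85, although the tissue is labelled as cortex. Genes closest to Il34 over the 28 clusters were Gm30624 (r = 0.85), Lamc3 (0.84), Tfap2a (0.82), Gm26688 (0.82) and Gm30667 (0.81).

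**Figure D2:**
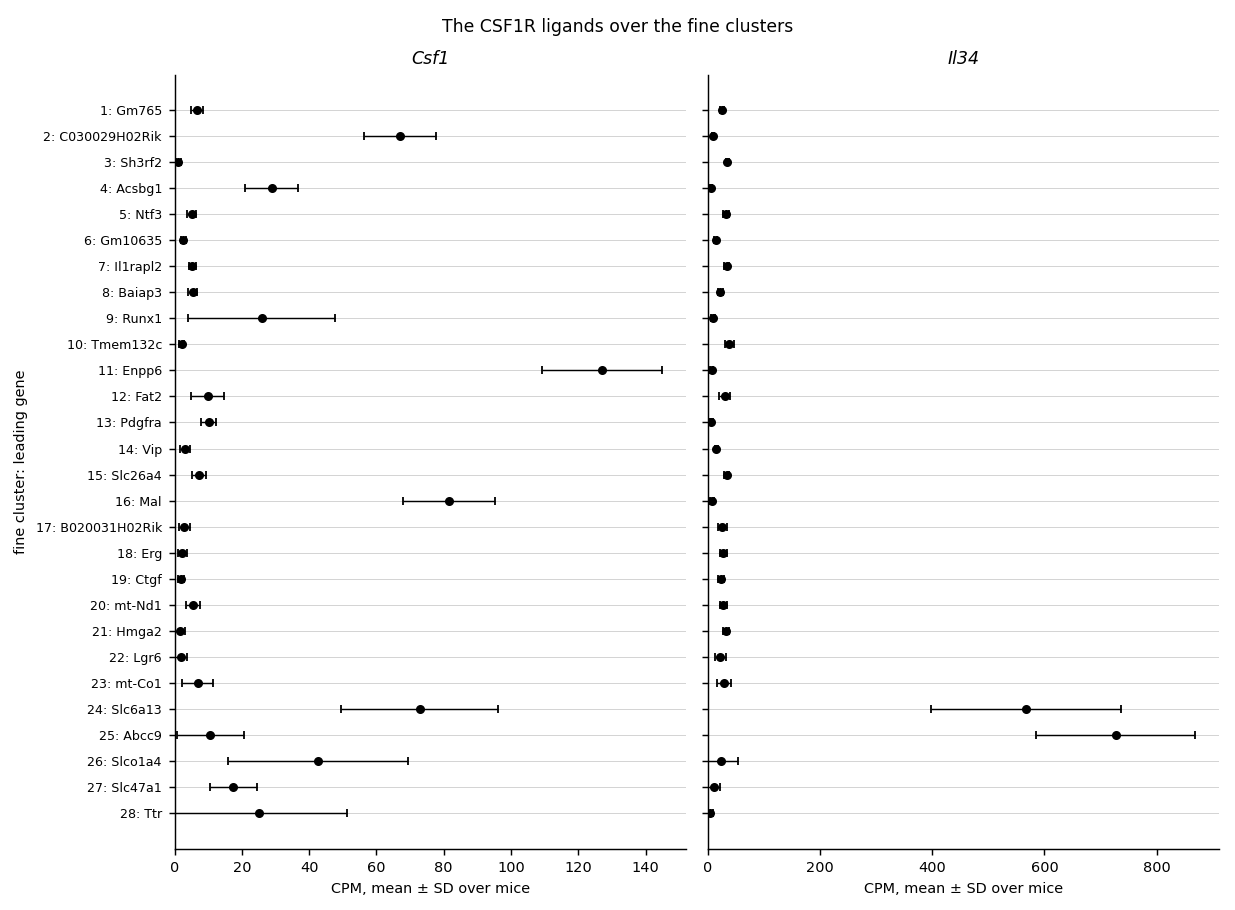
Csf1 (left) and Il34 (right) in CPM over the 28 fine clusters, named by number and leading gene; points are means and bars SDs over the mice with enough nuclei, with bars ended at 0. Csf1 peaks in cluster 11 at 127 CPM, and Il34 in clusters 25 (727 CPM) and 24 (567 CPM), while cluster 27 has 10.5 CPM of Il34.

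Csf1r (ENSMUSG00000024621; chromosome 18, 61100598 to 61132149, plus strand, 6 transcripts, with Hmgxb3 on the opposite strand) had 9961 UMIs, 91.2% of them in microglia nuclei. Its level there was 990 CPM ± 94.8 (SD, n = 11), and the next type, pericyte or smooth muscle, had 7.02 CPM ± 9.57, with no overlap. Thinned to 1000 UMIs, 59.9% of microglia nuclei (58.4 to 61.4%) held a Csf1r UMI, and 84.6% did unthinned. In the other 9 types the thinned share was 0.098 to 0.70%. The genes closest to Csf1r over the clusters were Siglech (r = 0.99), Csf3r (0.98), Myo1f (0.98), Cd84 (0.98) and Arhgap45 (0.98).

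Csf3r (ENSMUSG00000028859; chromosome 4, 126024550 to 126044440, plus strand, 4 transcripts) had 92.5% of its 7347 UMIs in microglia nuclei. The neutrophil genes S100a8, S100a9 and Ltf were at 0 there, and the 6 neutrophil markers together had 5 UMIs in 11 mice. Csf3r reached 660 CPM ± 128 (SD, n = 11) in microglia and at most 3.03 CPM on average in any other type, and 49.4% of thinned microglia nuclei held a UMI, against 0.068% of inhibitory neurons. Its closest genes were Havcr2 (r = 0.99), Csf1r (0.98), Gm40645 (0.98), Rasal3 (0.98) and Myo1f (0.98). Border macrophage markers were detected within the microglia cluster (8 of 8, of which Stab1, Mrc1 and F13a1 held most UMIs; summed level 224 to 721 CPM per mouse), and their part in the receptor levels was not tested.

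Csf2ra (ENSMUSG00000059326; chromosome 19, 61223957 to 61228429, minus strand, 8 transcripts) was the receptor chain spread most widely over types. Microglia had the highest level, 71.9 CPM ± 16.9 (SD, n = 11), then oligodendrocyte precursors with 41.1 CPM ± 5.25 and astrocytes with 24.4 CPM ± 4.75, and neither the first nor the second step overlapped in range. Inhibitory neurons (22.8 CPM ± 2.89) and excitatory neurons (19.7 CPM ± 2.61) overlapped with astrocytes or with each other. Only 4.33% of its 16958 UMIs were in microglia and 54.0% in excitatory neurons. Thinned to 1000 UMIs, 6.98% of microglia nuclei (6.24 to 7.78%), 4.28% of oligodendrocyte precursors (3.57 to 5.08%) and 2.00% of excitatory neurons (1.86 to 2.14%) held a UMI. The genes closest to it over the clusters included Nectin4 (r = 0.83), Abcb4 (0.81), I830077J02Rik (0.80) and Gm3739 (0.80).

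Csf2rb (ENSMUSG00000071713; chromosome 15, 78325752 to 78353847, plus strand, 8 transcripts) has a near copy next to it, Csf2rb2 (chromosome 15, 78282507 to 78305721, minus strand), the interleukin 3-specific beta chain, so the counts of the pair are shown together and their split is uncertain. Over the coding sequences 2503 bases were identical, 125 differed and 66 were gapped (92.9% identical). The last 400 transcript bases, toward which 3′ counting is directed, were 75.9% identical. Unspliced RNA was counted too, so the bases read for this pair are not known here. The first 90 coding bases of both are printed with the 3 differing bases in capitals.
Csf2rb: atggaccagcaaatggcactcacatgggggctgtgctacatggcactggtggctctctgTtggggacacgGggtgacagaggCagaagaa
Csf2rb2: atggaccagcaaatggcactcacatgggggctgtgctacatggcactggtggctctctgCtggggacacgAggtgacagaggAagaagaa
Of the Csf2rb UMIs 93.1% were in microglia, at 76.4 CPM ± 29.1 (SD, n = 11), and the thinned share of microglia nuclei with a UMI was 7.78% (7.003 to 8.62%); the next type, endothelial, had 1.95 CPM from 2 UMIs. Csf2rb2 had 399 UMIs, 79.7% in microglia. Closest to Csf2rb over the clusters were Gm15523 (r = 0.98), Alox5ap (0.98), Adgre1 (0.97), Gm40645 (0.97) and Il1a (0.97).

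The ligands of the GM-CSF and G-CSF receptors were nearly undetected. Over all types Csf2 had 1 UMI, Csf3 had 3 and Il3 had 0, which does not show that they are absent at this depth. Il5 had 206 UMIs and the receptor chains Il3ra and Il5ra had 433 and 494, most of them in neurons. Ptprz1, which encodes a second IL34 receptor, had 127580 UMIs. Its level was 2323 CPM ± 213 (SD, n = 11) in oligodendrocyte precursors and 2006 CPM ± 141 in astrocytes, with overlapping ranges.

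Genotype was then compared within microglia nuclei. Against non-transgenic mice, the knockout P301S and active IKKb P301S groups differ in tau transgene, Cre and IKKb at once. In those contrasts these cannot be told apart. In P301S mice Csf1 was raised against non-transgenic mice, with mutant tau as the question, and its receptor Csf1r was not called. The Csf1 call rested on few UMIs and was lost in 10 of 23 alternative fits. In active IKKb P301S mice Csf2rb was raised against non-transgenic mice, and no member was called against P301S mice. In both knockout contrasts no member was called, and 0 of 8903 genes (0%) were called. Against non-transgenic mice, 0.112% of all genes were called in P301S mice and 3.93% in active IKKb P301S mice. Between active IKKb P301S and P301S mice the share was 1.57%. Il34 had 98 UMIs in microglia, too few to pass the filter, and was not tested.

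Ikbkb itself was checked first. It ran from 112 to 114 CPM in the 2 knockout P301S mice, from 123 to 153 CPM in the 7 non-transgenic and P301S mice, and from 150 to 163 CPM in the active IKKb P301S mice. The 2 knockout mice were the lowest of the 11, but the difference from P301S mice was a log2 fold change of -0.31 ± 0.17 (SE) with an adjusted p of 0.579. Counting at the 3′ end may lie outside the deleted part of the gene, so this does not check the labels.

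Csf1 was measured at 17.9, 3.63, 8.51 and 4.24 CPM in the 4 non-transgenic mice, from 7, 2, 4 and 3 UMIs. In the 3 P301S mice it was at 20.8, 54.3 and 67.2 CPM, from 8, 33 and 100 UMIs. The knockout P301S mice were at 48.6 and 6.005 CPM (59 and 3 UMIs), and the active IKKb P301S mice at 25.5 and 28.2 CPM (42 and 41 UMIs). All P301S mice lay above all non-transgenic mice, whereas 1 knockout mouse lay within the range of the P301S mice, the other within that of the non-transgenic mice, and the 2 active IKKb mice lay between the lowest and the middle P301S mouse.

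By edgeR's quasi-likelihood test on summed counts with Benjamini-Hochberg adjustment (called at an adjusted p under 0.05 and an absolute log2 fold change over 0.1), Csf1 rose in P301S mice by a log2 fold change of 2.75 ± 0.52 (SE, adjusted p = 0.0304). It was 1 of 10 genes called among 8903 tested (0.112%) and the only one of the 5 members tested. The call rested on few molecules. It was lost without any 1 of the non-transgenic mice (adjusted p = 0.0605, 0.142, 0.128 and 0.192 without mice 1 to 4), without P301S mouse 2 (0.0775) or without P301S mouse 3 (0.452, log2 fold change 2.37), and with doublets kept (2.03, adjusted p = 0.259). It was also absent under DESeq2 (log2 fold change 2.53, with no adjusted p given) and with the numbers of the sample titles fitted as a block. Within the floxed Ikbkb line the log2 fold change was 2.04 (adjusted p = 0.358), and within the active IKKb line it was 3.44 (9.96e-05). The latter sets a single P301S mouse, the one with the highest Csf1 level, against 2 non-transgenic mice, and assumes that it varies like the mice of the other groups.

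The share of microglia nuclei with a Csf1 UMI gave a second view of the same molecules. Thinned to 1000 UMIs, it was 1.79, 0.71, 0.78 and 0.93% in non-transgenic mice and 2.43, 3.75 and 5.02% in P301S mice, where the lowest P301S mouse was above the highest non-transgenic mouse. The difference of the means, 3.73% ± 1.30 (SD, n = 3) against 1.05% ± 0.50 (n = 4), had p = 0.0286 in a two-sided exact permutation test, the smallest p that this design allows, and 0.0857 after Benjamini-Hochberg adjustment over 3 contrasts. Without thinning the P301S mice had 3.15, 6.79 and 9.19%. Knockout P301S mice had 3.32 and 1.60% and active IKKb P301S mice 2.48 and 2.65%; each differed from P301S mice with p = 0.4 in the exact permutation test, where 0.1 is the smallest p possible. Inhibitory neurons had a thinned share of 0.27% and an unthinned share of 2.35%, at median depths of 8600 UMIs against 2077 in microglia. The level of free RNA in microglia nuclei was not measured, and its part in these shares was not tested.

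Markers of the type with the most Csf1 were followed beside this result. The 8 oligodendrocyte markers, all detected in microglia nuclei, had a summed level of 291 to 484 CPM in non-transgenic mice and 320 to 480 CPM in P301S mice, ranges that overlapped, with 468 to 546 CPM in knockout and 387 to 463 CPM in active IKKb mice. Summed neuronal transcripts were at 10527 to 13579 CPM in non-transgenic, 8976 to 11692 CPM in P301S, 12482 to 12600 CPM in knockout and 9465 to 10671 CPM in active IKKb mice. Summed astrocyte markers were at 439 to 612, 470 to 589, 600 to 616 and 483 to 529 CPM in the same order. Lymphocyte markers, of which Bank1 held 2374 of 2446 UMIs and Cd3e none, were at 424 to 502 CPM in non-transgenic mice and 104 to 302 CPM in P301S mice, without overlap. The part of these in the Csf1 result was not tested.

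**Figure D3:**
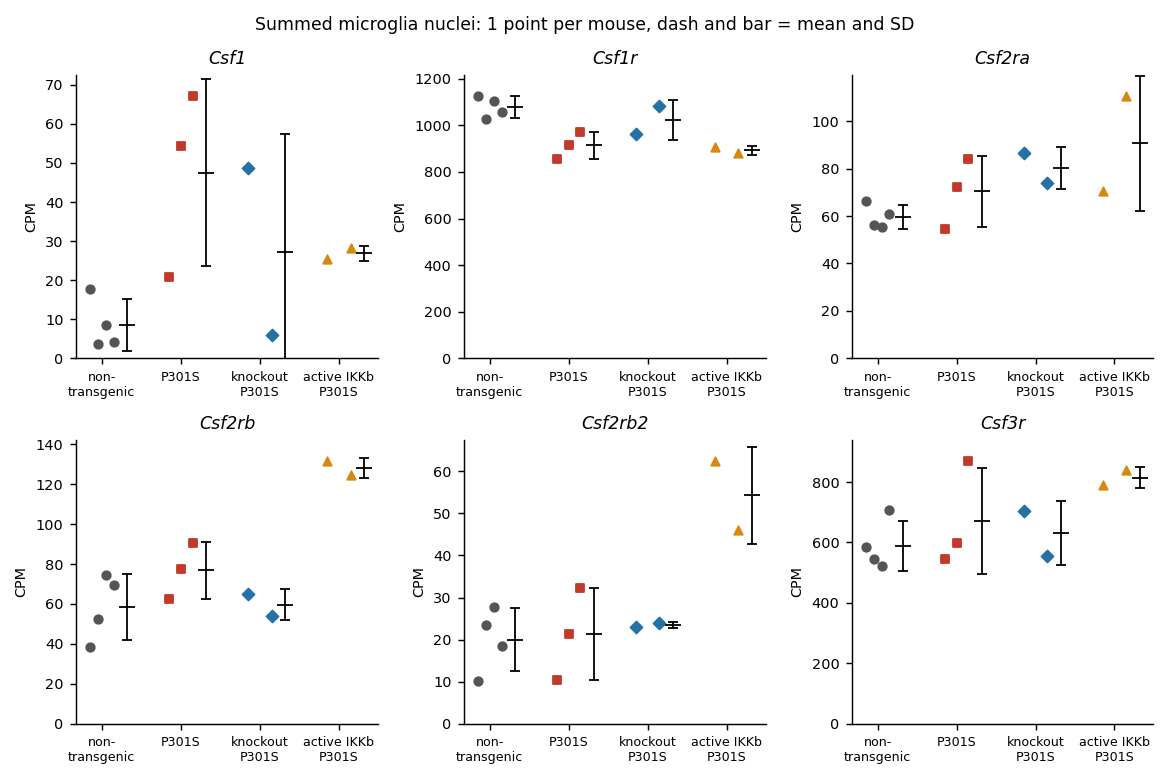
CPM in summed microglia nuclei for Csf1, Csf1r, Csf2ra, Csf2rb, its near copy Csf2rb2 and Csf3r, with 1 point per mouse in 4 genotype groups; the dash and bar beside the points give the mean and SD, and bars end at 0. The 3 P301S mice lie above the 4 non-transgenic mice for Csf1, and the 2 active IKKb P301S mice lie above all 9 others for Csf2rb and Csf2rb2.

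In the other 2 contrasts with P301S mice Csf1 was not called. The log2 fold change was -0.66 ± 0.44 (adjusted p = 0.645) in knockout P301S mice and -0.98 ± 0.41 (adjusted p = 0.405) in active IKKb P301S mice. Within the active IKKb line, with 1 P301S mouse, the latter was -1.31 (adjusted p = 0.0410), a fit in which that mouse is assumed to vary like the others. Against non-transgenic mice, the log2 fold change was 2.09 ± 0.59 in knockout P301S mice (adjusted p = 0.889) and 1.77 ± 0.57 in active IKKb P301S mice (adjusted p = 0.0998). Without knockout P301S mouse 1 the former turned to -0.35, so its direction rested on 1 mouse. The latter passed the threshold in 5 of 22 alternatives. Among them were the fits without either knockout mouse (edgeR adjusted p = 0.0345 without mouse 1 and 0.0307 without mouse 2). These contrasts share the P301S or the non-transgenic mice and are not independent of each other.

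Csf1r was measured at 1127, 1025, 1104 and 1058 CPM in non-transgenic mice and at 857, 914 and 970 CPM in P301S mice, so that the groups did not overlap. The log2 fold change was -0.24 ± 0.11, with an unadjusted p of 0.0334 and an adjusted p of 0.571. Knockout P301S mice were at 963 and 1083 CPM and active IKKb P301S mice at 907 and 879 CPM. Against P301S mice the log2 fold changes were 0.15 ± 0.13 (adjusted p = 0.719) and -0.05 ± 0.13 (adjusted p = 0.993). Against non-transgenic mice the active IKKb value was -0.30 ± 0.12 (adjusted p = 0.234). No contrast passed the adjusted threshold for Csf1r, which does not show that its level was equal.

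Csf2rb was at 38.3, 52.6, 74.4 and 69.3 CPM in non-transgenic mice and at 62.5, 77.3 and 90.8 CPM in P301S mice. Knockout P301S mice were at 65.1 and 54.0 CPM. The 2 active IKKb P301S mice had 132 and 125 CPM, above all 9 other mice. Against non-transgenic mice Csf2rb rose in active IKKb P301S mice by a log2 fold change of 1.07 ± 0.20 (adjusted p = 0.0017), 1 of 350 genes called among 8903 (3.93%) and 1 of the 5 members tested. The call held in each of the 22 alternatives, from 0.82 within the active IKKb line (adjusted p = 0.0428) to 1.17. Beside this contrast, the summed lymphocyte markers, with most UMIs from Bank1 alone, were at 149 to 248 CPM in active IKKb P301S mice and 424 to 502 CPM in non-transgenic mice. The median UMIs per microglia nucleus were 2344 to 2493 and 1698 to 2151. Neither pair of ranges overlapped, and their part in the result was not tested. Against P301S mice, which also carry the tau transgene, the log2 fold change by edgeR was 0.67 ± 0.20 (unadjusted p = 0.00257, adjusted p = 0.102). Within the active IKKb line, which has 1 P301S mouse, it was 0.51. Of the 8903 genes, 140 (1.57%) were called in that contrast and none of the members. In the knockout contrast, 0 of 8903 genes (0%) were called by edgeR and 0 by DESeq2, with 821 and 426 at an unadjusted p under 0.05, and Csf2rb was at -0.39 ± 0.23 (adjusted p = 0.600).

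Csf2rb2 was likewise highest in the 2 active IKKb P301S mice, while the other groups overlapped. It had 10.2, 23.6, 27.6 and 18.4 CPM in non-transgenic mice, 10.4, 21.4 and 32.3 CPM in P301S mice, 23.1 and 24.02 CPM in knockout P301S mice, and 62.5 and 46.1 CPM in active IKKb P301S mice. The log2 fold change of active IKKb P301S mice was 1.40 ± 0.30 against non-transgenic mice (adjusted p = 0.00725) and 1.12 ± 0.29 against P301S mice (adjusted p = 0.0536). The former call was lost without active IKKb P301S mouse 1 (1.15, adjusted p = 0.124), and the latter passed without P301S mouse 3 (1.65, adjusted p = 0.0128). Since the pair share sequence, these 2 results are not independent.

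Csf2ra, the partner of Csf2rb, was at 66.3, 56.2, 55.3 and 60.8 CPM in non-transgenic mice, at 54.7, 72.3 and 84.0 CPM in P301S mice, at 86.5 and 74.1 CPM in knockout P301S mice and at 70.4 and 111 CPM in active IKKb P301S mice. All mice with the tau transgene except P301S mouse 1 were above the highest non-transgenic mouse. By edgeR, the log2 fold change against non-transgenic mice was 0.57 ± 0.21 in active IKKb P301S mice (adjusted p = 0.161) and 0.44 ± 0.23 in knockout P301S mice (adjusted p = 0.889). Csf3r ranged from 521 to 707 CPM in non-transgenic mice and was at 544, 598 and 870 CPM in P301S mice, 705 and 556 CPM in knockout and 789 and 838 CPM in active IKKb P301S mice. Its log2 fold change by edgeR in active IKKb P301S mice against non-transgenic mice was 0.43 ± 0.16 (adjusted p = 0.176). In the knockout against non-transgenic contrast 0 of 8903 genes (0%) were called by edgeR and 0 by DESeq2, with 481 and 198 at an unadjusted p under 0.05.

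**Figure D4:**
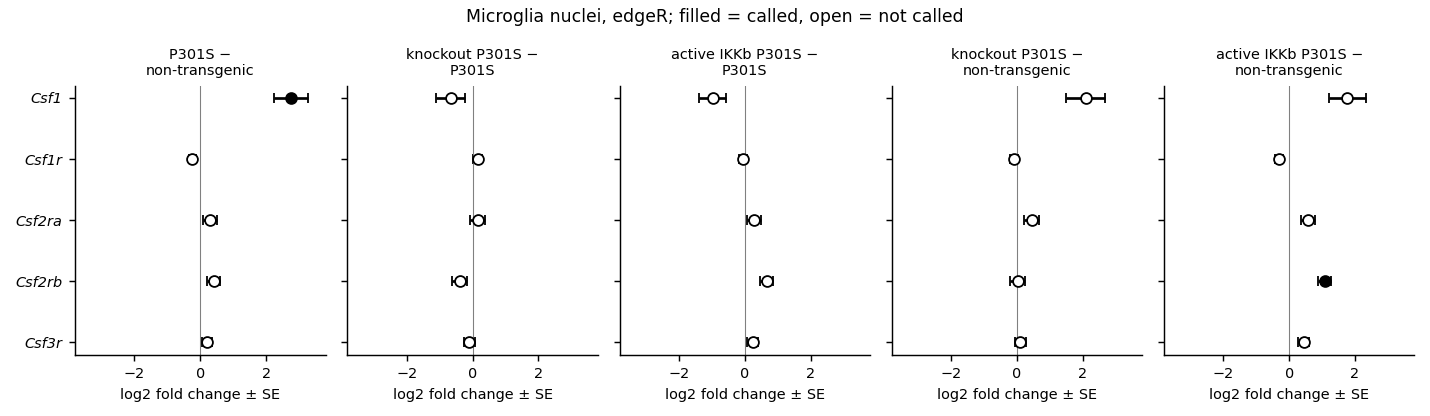
Log2 fold change with its SE for the 5 members tested in microglia nuclei, in 5 panels, 1 per contrast; filled points were called by edgeR and open points were not. The 2 filled points are Csf1 in P301S against non-transgenic mice (2.75) and Csf2rb in active IKKb P301S against non-transgenic mice (1.07).

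Over the 11 mice, the genes whose log2 CPM in microglia was closest to that of Csf1, among 8903, were Manba (r = 0.91), Psmd7 (0.90), Myo1e (0.90), Sass6 (0.90) and Gm37168 (0.89). For Csf2rb they were Cd300lf (r = 0.95), Slamf8 (0.94), Zc3h12c (0.94), Rxrg (0.92) and Nadk (0.91), for Csf1r Ston2 (0.93), Snn (0.92), Exd2 (0.87), Zcchc14 (0.87) and Khnyn (0.87), for Csf2ra Gas7 (0.95), Trak1 (0.94), Gpr137b (0.91), Tsc2 (0.90) and Mapkapk2 (0.90), and for Csf3r Kcnj10 (0.96), Clic4 (0.95), Fmnl2 (0.94), Slc35d2 (0.93) and Cyb5r1 (0.93). These mice belong to 4 genotype groups and share library depth with each gene, so the values are descriptions.

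Downstream of the receptors, the 21 genes of CSF1R signalling (adaptors, Src family kinases and their inhibitors) were all tested. None was called in P301S mice against non-transgenic mice or in knockout mice against P301S mice, where 0.112% and 0% of all genes were called. There 12 and 7 of 21 were above 0 with medians of 0.06 and -0.08, against -0.00 and -0.03 over all genes. Against P301S mice, where 1.57% of all genes were called and the median over all genes was -0.01, 2 of 21 rose with active IKKb (median 0.09): the Src family kinase genes Fgr, by 1.42 ± 0.31 (adjusted p = 0.0154), and Src, by 1.25 ± 0.26 (adjusted p = 0.00991). Fgr lost the call without P301S mouse 2 (adjusted p = 0.115) or active IKKb P301S mouse 2 (0.189), as did Src (0.0903 and 0.0634). Within the active IKKb line the values were 0.86 for Fgr (adjusted p = 0.188) and 1.12 for Src (0.0568). Against non-transgenic mice, with 3.93% of all genes called and an all-gene median of -0.01, 3 of 21 rose (median 0.14): Fgr, by 3.36 ± 0.36 (adjusted p = 3.45e-06), Src, by 1.15 ± 0.25 (adjusted p = 0.00725), and the adaptor gene Gab2, by 0.45 ± 0.12 (adjusted p = 0.0338). Src lost that call without active IKKb P301S mouse 2 (0.0563), and Gab2 without non-transgenic mouse 1 (0.0829), 3 (0.0675) or 4 (0.0740) or without active IKKb P301S mouse 1 (0.240) or 2 (0.140).

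Of 11 JAK-STAT genes that act after the CSF2 and CSF3 receptors 8 were tested, and of 8 transcription factors known to act on the Csf1r gene 3 were tested. No gene of either list was called in any of the 5 contrasts. Of the 8 JAK-STAT genes, 3 to 7 were above 0 over the 5 contrasts, with medians from -0.03 to 0.14, and of the 3 transcription factors 1 to 3, with medians from -0.01 to 0.30. The medians over all genes lay between -0.03 and -0.00, and 0% to 3.93% of all genes were called.

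Genes of NF-κB feedback, which encode inhibitors, subunits and other regulators of the pathway, were followed as well. Of 10 tested, 6 rose in active IKKb P301S mice against P301S mice (median 1.45, with 1.57% of all genes called and an all-gene median of -0.01). Against non-transgenic mice, where the tau transgene differs too, 8 rose (median 1.55, with 3.93% of all genes called and an all-gene median of -0.01). None was called in P301S against non-transgenic mice (median 0.27, with 8 of 10 above 0), in the knockout against P301S mice (median -0.41, with 1 of 10 above 0) or in the knockout against non-transgenic mice (median -0.06, with 5 of 10 above 0). Over all genes, 0.112%, 0% and 0% were called there, with medians of -0.00, -0.03 and -0.01. In the knockout contrast with P301S mice, the 10 neuronal transcripts that mark RNA of other cells were all above 0 (median 0.29, none called). Against non-transgenic mice, 1 of 10 was above 0 in P301S mice (median -0.23) and 1 of 10 in active IKKb P301S mice (median -0.26). In knockout P301S mice it was 9 of 10 (median 0.09). Between active IKKb P301S and P301S mice it was 1 of 10 (median -0.05). The part of these transcripts in the other values was not tested. Against P301S mice Tnip1 rose by 2.13 ± 0.23 (adjusted p = 6.43e-06) and Birc3 by 1.38 ± 0.24 (adjusted p = 0.00207), and both kept the call without each mouse. Relb, by 1.51 ± 0.28 (adjusted p = 0.00441), lost it without active IKKb P301S mouse 2 (0.0747). Bcl3, at 2.40 ± 0.54 (adjusted p = 0.0212), lost it without P301S mouse 2 (0.127) or active IKKb P301S mouse 1 (0.136) or 2 (0.188), and Nfkbie, at 1.72 ± 0.40 (adjusted p = 0.0243), lost it without any 1 mouse of either group (0.0598 to 0.151). Against non-transgenic mice the 5 with the largest values were Bcl3 (2.69 ± 0.57), Tnip1 (2.65 ± 0.23), Relb (2.25 ± 0.30), Nfkbia (2.14 ± 0.45) and Birc3 (1.61 ± 0.24), of which Bcl3 lost the call without active IKKb P301S mouse 1 (0.0575) or 2 (0.0793) and Nfkbia without mouse 2 (0.0810).

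Csf1 is commonly listed among the genes of disease-associated microglia (DAM), so the other genes of that list were followed. None of 19 tested was called in P301S mice, where 0.112% of all genes were called. All 19 of 19 were above 0, with a median of 0.77 against -0.00 over all genes. In the same contrast 1 of 10 neuronal transcripts was above 0 (median -0.23), and their part was not tested. In the knockout, 2 of 19 were above 0 against P301S mice (median -0.47) and 15 of 19 against non-transgenic mice (median 0.26). None was called in either contrast, where 0% of all genes were called. Against P301S mice with active IKKb, Ank fell by 1.43 ± 0.23 on the log2 scale (adjusted p = 0.000796) and 9 of 19 were above 0 (median -0.10), with 1.57% of all genes called. Against non-transgenic mice, with 3.93% of all genes called, 5 of 19 rose in active IKKb P301S mice (17 of 19 above 0, median 0.36). That contrast joins the tau transgene and active IKKb. The 5 were Itgax by 3.69 ± 0.71, Axl by 3.61 ± 0.55, B2m by 1.17 ± 0.23, Ctsz by 1.07 ± 0.23 and Timp2 by 0.87 ± 0.20. Axl and B2m kept the call without each mouse. Itgax and Ctsz lost it without active IKKb P301S mouse 2 (adjusted p = 0.0586 and 0.0651), and Timp2 without that mouse (0.245) or non-transgenic mouse 2 (0.0705).

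The 12 homeostatic microglia genes other than Csf1r were not called in P301S mice (median -0.24) or in knockout mice (median -0.00 against P301S and -0.27 against non-transgenic mice). Over all genes, 0.112% were called in P301S against non-transgenic mice and 0% in both knockout contrasts. With active IKKb against P301S mice the share was 1.57%. The all-gene medians of these contrasts lay between -0.03 and -0.00. With active IKKb against P301S mice, Fcrls fell by 2.84 ± 0.63 on the log2 scale (adjusted p = 0.0186), a call lost without P301S mouse 1 (0.0541) or 2 (0.209) or active IKKb P301S mouse 1 (0.138) or 2 (0.0630); within the active IKKb line the value was -0.64 (adjusted p = 0.902). Against non-transgenic mice, 3 of 12 fell in active IKKb P301S mice (none above 0, median -0.55). In that contrast 3.93% of all genes were called, and the all-gene median was -0.01. The 3 were Fcrls by 3.21 ± 0.61, Siglech by 0.60 ± 0.14 and Cx3cr1 by 0.53 ± 0.15. Fcrls kept the call without each mouse. Siglech lost it without non-transgenic mouse 1 (adjusted p = 0.0620) or active IKKb P301S mouse 2 (0.380), and Cx3cr1 without non-transgenic mouse 1 (0.146), 3 (0.0832) or 4 (0.0601) or active IKKb P301S mouse 2 (0.454). The Cre-carrying mice have 1 Cx3cr1 allele replaced. Within the active IKKb line, Src, Gab2, Timp2, Siglech and Cx3cr1 no longer passed the adjusted threshold against non-transgenic mice, nor did Bcl3, Nfkbie and Relb against P301S mice.

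Csf1 and the DAM list were then compared within mice. Microglia nuclei with a Csf1 UMI had more UMIs of the DAM list, Csf1 left out, than microglia nuclei of the same mouse without one, in 6 of 6 mice with at least 5 such nuclei (6 to 36 per mouse). The means were 39.4 and 20.1 UMIs per 10000, a difference of 19.3 ± 4.92 (SD, n = 6; range 13.5 to 26.8), with p = 0.0313 in a two-sided exact permutation test by sign changes, the smallest p that 6 mice allow. The genotypes entered together: 3 P301S mice, 1 knockout P301S mouse and 2 active IKKb P301S mice. The homeostatic list was lower in nuclei with a Csf1 UMI in 6 of 6 mice, at 40.8 against 55.5 UMIs per 10000. No non-transgenic mouse had 5 such nuclei after thinning. Thinned to 500 UMIs, 4 mice remained, and the DAM difference was 15.8 with p = 0.125, the smallest possible exact permutation p for 4 mice.

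**Figure D5:**
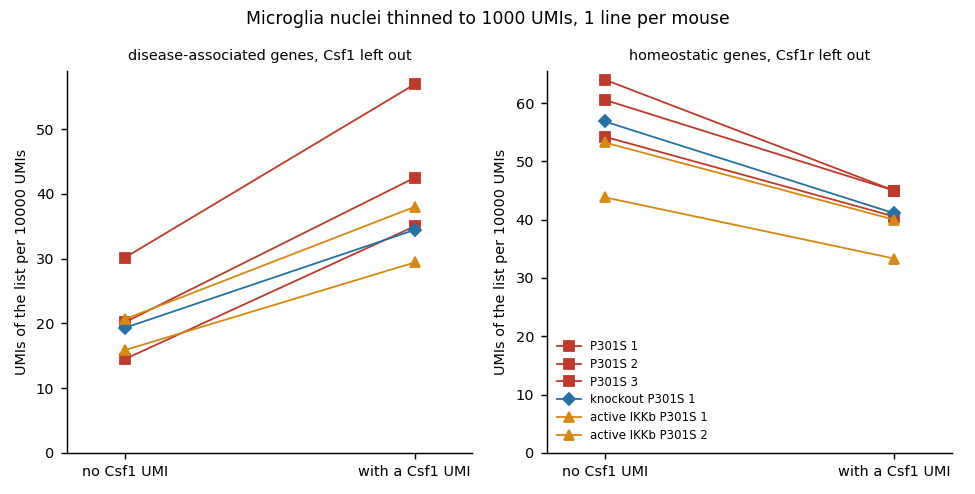
UMIs of the DAM list (left) and of the homeostatic list (right) per 10000 UMIs in microglia nuclei without and with a Csf1 UMI, after thinning to 1000 UMIs; each line is 1 mouse, coloured by genotype. All 6 lines rise on the left, by 13.5 to 26.8, and all 6 fall on the right.

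In the other 7 nucleus types with at least 20 nuclei in every mouse, 72 tests of members over 3 contrasts gave no call. The share of all genes called was 0.0386% in excitatory neurons, 0.0179% in inhibitory neurons, 0.00769% in oligodendrocytes and 0.00986% in oligodendrocyte precursors for the P301S contrast, 0.0287% in fibroblasts and 0.495% in pericyte or smooth muscle nuclei for the knockout contrast, and 0.00551% in excitatory neurons and 0.0154% in oligodendrocytes for the active IKKb contrast. In the remaining 13 comparisons edgeR called 0 genes (0%) and DESeq2 0 to 13, while edgeR's unadjusted p was under 0.05 for 127 to 1672 genes. Of the 72 member tests 4 had an unadjusted p under 0.05 by edgeR. Over all genes in the same P301S contrasts, 625 of 13009 in oligodendrocytes, 613 of 12196 in astrocytes and 305 of 6979 in fibroblasts did. For inhibitory neurons in the knockout contrast it was 1133 of 16718.

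Csf1 in oligodendrocyte nuclei was at 71.5, 72.2, 67.4 and 93.2 CPM in non-transgenic mice and 84.7, 89.3 and 109 CPM in P301S mice, and the groups overlapped (log2 fold change 0.29 ± 0.11, unadjusted p = 0.0209, adjusted p = 0.938). In astrocytes it was at 20.9, 21.3, 18.8 and 27.3 CPM against 24.4, 34.3 and 37.0 CPM (0.49 ± 0.20, unadjusted p = 0.0228, adjusted p = 0.945). Il34 in fibroblast nuclei was at 294, 406, 265 and 116 CPM against 379, 278 and 607 CPM (0.59 ± 0.28, unadjusted p = 0.0433, adjusted p = 0.9997). Csf3r in inhibitory neurons, at under 1.2 CPM in every mouse, had a log2 fold change of 1.22 ± 0.54 in the knockout contrast (unadjusted p = 0.0441, adjusted p = 0.729). None of these passed the adjusted threshold. In pericyte or smooth muscle nuclei, its highest type, Il34 was at 612, 533, 811 and 714 CPM in non-transgenic mice and 976, 616 and 856 CPM in P301S mice, with overlap.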

How the data were processed

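Nuclei from frozen cortex of 11 mice were sorted and sequenced with a droplet 3′ kit with UMIs. The authors deposited raw UMI counts per gene and barcode for each mouse, made with Cell Ranger 3.1.0 on a pre-mRNA reference of mm10, per the labels and the study's methods; the submitters' processing notes also name Seurat 3.0. The doublet removal, clusters and names were rebuilt here and may differ from the study's.

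Of 114118 barcodes, 23 with more than 8000 genes and 1556 with over 5% mitochondrial UMIs were dropped (minimum 300 genes), and 9474 (8.42%) were removed as doublets, scored against simulated doublets at a rate of 0.8% per 1000 barcodes, which left 103065. Counts were scaled to 10000 and clustered by Leiden (2000 variable genes without the members, 15 components, 20 neighbours, resolution 0.1 and 1.0), and clusters were named by marker lists. Counts were summed per mouse and type and tested with edgeR 4.0.16 (quasi-likelihood, TMM, filterByExpr, 1 term per genotype, all 11 mice) and, as an alternative, DESeq2 1.42.0, in R 4.3.3, with Benjamini-Hochberg adjustment over all genes tested and a gene was called where the adjusted p was below 0.05 and the log2 fold change exceeded 0.1 in size. Types with fewer than 20 nuclei in any mouse were not tested. Exact permutation tests enumerated all regroupings of mice, two-sided, in Python 3.11.15. The test scripts were tested on simulated data.

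Genes named beside the members are those of each list with a call (at most the 5 of largest change per list and contrast) and the 5 genes most correlated with each member. Members and lists were chosen with earlier results of these data known. Each sample is 1 mouse, so p-values measure the spread between mice. Mice are numbered here within a group in sample order. The replicate block used the numbers in the sample titles. Over both lines, 22 same-numbered pairs of mice had correlations of their deviations from -0.10 to 0.16 (median 0.0057). That check pooled the lines and cannot show whether the numbers pair mice within a line. In the active IKKb line, same-numbered non-transgenic and active IKKb P301S mice had equal ages (10.85 and 9.8 months). Alternatives covered the size factors, filter, left-out mice, line, age, doublets, thinning and the variable genes. Some genes that the rule names are not reported here.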

Additional observations from a re-analysis of the deposited data

Results flagged for a closer look

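Csf1r in excitatory neurons of non-transgenic mice had 1 mouse apart from the others: mouse 4 was at 1.51 CPM, against 0.515 to 0.565 CPM in the other three. It was 1 of 27 groups of 4 mice checked, and chance gives about 1 in 20. In the other groups, excitatory neurons ran from 0.553 CPM (P301S mouse 1) to 1.37 CPM (knockout P301S mouse 1). Microglia nuclei were at 857 CPM or more in every mouse. The cause was not tested.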

How the results depend on the processing

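The number of members called in microglia changed with the processing. For P301S against non-transgenic mice it was 1, and 0 under DESeq2 (where the adjusted p of Csf1 was not given), the replicate block, doublets kept or the floxed Ikbkb line only, and 0 to 1 without each mouse. For active IKKb against P301S it was 0, and 1 with no filter or within the active IKKb line. For the knockout against non-transgenic mice it was 0, and 1 with no filter. For active IKKb against non-transgenic mice it was 1, and 3 with no filter, 2 within the line, 2 with only the 2 groups fitted, and 1 to 2 without each mouse. With the replicate block, for which no shared litter is labelled, Csf1 was at 2.63 (edgeR adjusted p = 0.0989). The difference in the share of nuclei with a Csf1 UMI was 2.03 to 3.33 points without each mouse, and the DAM difference in nuclei with a Csf1 UMI was 17.8 to 20.4 without each mouse and 15.8 at 500 UMIs. TMM scaling gave Il34 549 CPM in pericyte or smooth muscle nuclei and Csf1r 815 CPM in microglia, and doublets kept gave Csf1r 801 CPM. The cause was not tested.

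Directions that reversed were all of values not called. In P301S against non-transgenic mice they were Csf3r (-0.0400; 0.297 without P301S mouse 1, the other end of the range) and Csf2rb2 (-0.25) without P301S mouse 3, and Csf2rb2 within the floxed line (-0.0849). In the knockout against P301S they were Csf2ra with age (-0.0013) and thinned (-0.0338), and Csf3r without P301S mouse 3 (0.13), without knockout mouse 2 (0.08), with line (0.0290), thinned (0.0806) and within the floxed line (0.15), with -0.283 without knockout mouse 1 at the other end. There Csf2rb2 was at 0.0084 with DESeq2, 0.45 without P301S mouse 3, 0.27 with line, 0.13 with doublets, 0.86 with age and 0.46 within the line. With active IKKb against P301S they were Csf2ra without active IKKb mouse 2 (-0.0766; 0.572 without mouse 1) and Csf3r within the line (-0.0885). In the knockout against non-transgenic mice they were, without knockout mouse 1, Csf1 (-0.35; 2.65 without mouse 2), Csf2rb (-0.16) and Csf3r (-0.10; 0.252 without mouse 2), Csf2rb without non-transgenic mouse 1 (-0.10) or 2 (-0.04), Csf1r with age (0.0170) and Csf2rb2 thinned (-0.13).

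Over all genes in microglia, the 10 called in P301S against non-transgenic mice became 4 with DESeq2, 3 with the block, 30 with line, 0 with doublets and 132 with no filter. Without P301S mouse 3 the count was 0. The 140 for active IKKb against P301S ranged from 70 to 346, the 350 against non-transgenic mice from 161 to 562, and the 0 in both knockout contrasts reached 40 against P301S and 38 against non-transgenic mice.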
